A study of Mus musculus with 6 samples.

Results

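The Cyp4a and Cyp4f genes and Cyp4v3 encode cytochrome P450 enzymes that place a hydroxyl group on the last carbons of fatty acids. A set of 9 mouse genes was examined in liver: Cyp4a10, Cyp4a14, Cyp4a31, Cyp4a12a, Cyp4a12b, Cyp4f13, Cyp4f14, Cyp4f15 and Cyp4v3. The members were chosen from the contrast between the mouse lines that is described here, so their differences between the lines are given as a description with no p-value. Every probe set whose only symbol in the array annotation was a member was taken, which gave 8 probe sets for 7 of the 9 genes, out of 22626 probe sets that carried 12393 genes with a probe set of a single symbol. Cyp4a10 was measured only by 1 probe set that also matches Cyp4a31, and no probe set carried the symbol Cyp4a12b. This shared probe set is described apart.

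Affymetrix mouse genome arrays were hybridised with liver RNA of DUhTP mice, a line selected over many generations for high treadmill performance (marathon mice), and of DUC mice, the unselected control line. Both lines stem from crosses of outbred and inbred founders and neither is inbred, the animals were males aged 70 days that received no treatment, and each line had 3 arrays. The sample descriptions speak of single mice and the methods of pools, so that the errors given measure only the spread between arrays, which may be technical, and the small number of arrays limits their precision. With 1 selected and 1 control line, selection and chance divergence of the lines cannot be told apart.

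Hydroxylation at the end of the chain prepares fatty acids for conversion to dicarboxylic acids, which are shortened in peroxisomes, and it also turns arachidonic acid and leukotrienes into other signals or inactivates them. In rodent liver the Cyp4a10 and Cyp4a14 genes are classical targets of PPARA, the nuclear receptor that responds to fatty acids and is active in fasting. Mouse Cyp4a12a is known for its androgen-dependent, male-biased expression. Cyp4f enzymes act on leukotrienes and on the side chains of fat-soluble vitamins.

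The members lie in 3 places of the genome. In the gene order of mouse assembly GRCm38.p6, Cyp4a12a, Cyp4a12b, Cyp4a30b, Cyp4a14, Cyp4a10 and Cyp4a31 follow each other on chromosome 4. On chromosome 17, Cyp4f14 and Cyp4f13 are direct neighbours, and Cyp4f15 is separated from them by zinc finger genes. Cyp4v3 lies alone among unrelated genes on chromosome 8.

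The sequences before the starts of the 3 Cyp4f genes are shown because these related neighbours differed between the lines to different extents, as given further on. They come from the reference assembly and not from DUhTP or DUC mice, so they cannot show whether the lines differ in them. Each is the stretch of 250 bases before a transcript start in RefSeq, assembly GRCm38.p6, written 5′ to 3′ on the strand of the gene, and capitals mark ATTGG, which is the motif CCAAT read on the other strand. The Cyp4f14 window is that of the third of 4 starts listed for this gene and lies at chr17:32917330-32917579 on the minus strand. It is shown because its match lies at nearly the same distance as in the other genes, whereas the matches of the other starts lie 50, 64 and 24 bases before them. The likeness of its distance to those of the other genes thus follows from this choice. The Cyp4f13 window lies at chr17:32947362-32947611 on the minus strand and the Cyp4f15 window at chr17:32685409-32685658 on the plus strand.
Cyp4f14: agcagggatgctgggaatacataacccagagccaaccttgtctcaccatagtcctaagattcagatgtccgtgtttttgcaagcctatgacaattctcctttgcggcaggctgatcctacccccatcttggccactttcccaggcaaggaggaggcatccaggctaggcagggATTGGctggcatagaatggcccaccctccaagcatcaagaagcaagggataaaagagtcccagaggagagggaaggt
Cyp4f13: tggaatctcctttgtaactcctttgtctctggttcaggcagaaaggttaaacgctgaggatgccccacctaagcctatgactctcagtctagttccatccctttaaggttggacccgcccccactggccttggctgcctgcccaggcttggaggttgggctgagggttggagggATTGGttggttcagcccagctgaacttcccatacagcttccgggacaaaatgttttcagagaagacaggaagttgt
Cyp4f15: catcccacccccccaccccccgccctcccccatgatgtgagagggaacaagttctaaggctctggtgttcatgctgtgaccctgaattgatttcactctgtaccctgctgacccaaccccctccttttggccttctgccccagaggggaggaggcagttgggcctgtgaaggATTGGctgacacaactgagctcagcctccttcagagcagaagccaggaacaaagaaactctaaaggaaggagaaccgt
The capital letters began 77 bases before the start in Cyp4f14, 76 bases in Cyp4f13 and 78 bases in Cyp4f15. CCAAT, searched on both strands, was present in 33.8% of 32851 mouse promoter windows of this length. The direct repeat of AGGNCA with 1 base between the copies, the type of element bound by PPARA with its partner RXR, was found on either strand in 0.338% of all windows and in none of those of Cyp4f13, Cyp4f14, Cyp4f15 and Cyp4v3, which says only that these letters are not in these windows. No promoter window of a Cyp4a member was available, so the element was not searched in Cyp4a10, Cyp4a14 or the other Cyp4a genes.

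The largest difference among the bright probe sets was that of Cyp4a14, a fatty acid hydroxylase. Its probe set read 1034, 762 and 1010.5 intensity units in DUhTP arrays 1, 2 and 3, against 5290, 6239 and 6354 in DUC arrays 1, 2 and 3. All DUhTP arrays lay far below all DUC arrays. The mean was 935 ± 151 in DUhTP livers and 5961 ± 584 in DUC livers (SD, n = 3 each), a log2 fold change of -2.68 with a SE of 0.17 and a 95% interval from -3.09 to -2.27, which is 6.41-fold lower in DUhTP.

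The probe set shared by Cyp4a10 and Cyp4a31 read 5654, 5892 and 5435 in DUhTP livers, against 10142, 10669 and 10545 in DUC livers. The arrays of the lines did not overlap, and within each line they lay close together. Means were 5660 ± 229 in DUhTP and 10452 ± 275 in DUC (SD, n = 3 each), with a log2 fold change of -0.89, a SE of 0.10 and a 95% interval from -1.13 to -0.64 (1.85-fold lower in DUhTP). Cyp4a10 is, like Cyp4a14, a fatty acid hydroxylase with strong induction by PPARA ligands in rodents, and the signal cannot be divided between the paired genes.

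Cyp4a31, a close relative of Cyp4a10, also had a dim probe set of its own, which read 7.94, 3.03 and 3.32 in DUhTP livers, against 30.5, 30.6 and 32.7 in DUC livers. The lines did not overlap, but only 23.1% of all probe sets were dimmer, and DUhTP array 1 stood above the other DUhTP arrays. Means were 4.76 ± 2.75 in DUhTP and 31.3 ± 1.24 in DUC (SD, n = 3 each), and the log2 fold change was -2.86 with a SE of 0.38 and a 95% interval from -3.79 to -1.93 (7.26-fold lower in DUhTP). At such intensities the size of a fold depends on the background, and with 16 units added to every intensity the log2 fold change was -1.19 (2.29-fold lower). No detection calls were used here, so that the values do not tell whether the transcript was detected in DUhTP livers.

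Cyp4a12a is the main arachidonic acid hydroxylase of the mouse Cyp4a group. Its probe set read 3801, 4022 and 3694 in DUhTP livers, against 3879, 3588 and 3650 in DUC livers. The arrays of the lines overlapped. Means were 3839 ± 167 in DUhTP and 3705 ± 153 in DUC (SD, n = 3 each), and the 95% interval of the log2 fold change of 0.05 ran from -0.20 to 0.30. Cyp4a12b is nearly identical to Cyp4a12a in mice, so its transcripts may contribute to this probe set, which was not tested.

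Cyp4f14, a mouse leukotriene hydroxylase that also acts on vitamin side chains, was the member with the largest difference in the opposite direction. Its probe set read 1733, 1811 and 1521 in DUhTP livers, against 848, 824 and 892 in DUC livers. Every DUhTP array lay above every DUC array. Means were 1688 ± 150 in DUhTP and 855 ± 34.7 in DUC (SD, n = 3 each), a log2 fold change of 0.98 with a SE of 0.12 and a 95% interval from 0.69 to 1.26 (1.97-fold higher in DUhTP).

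**Figure D1:**
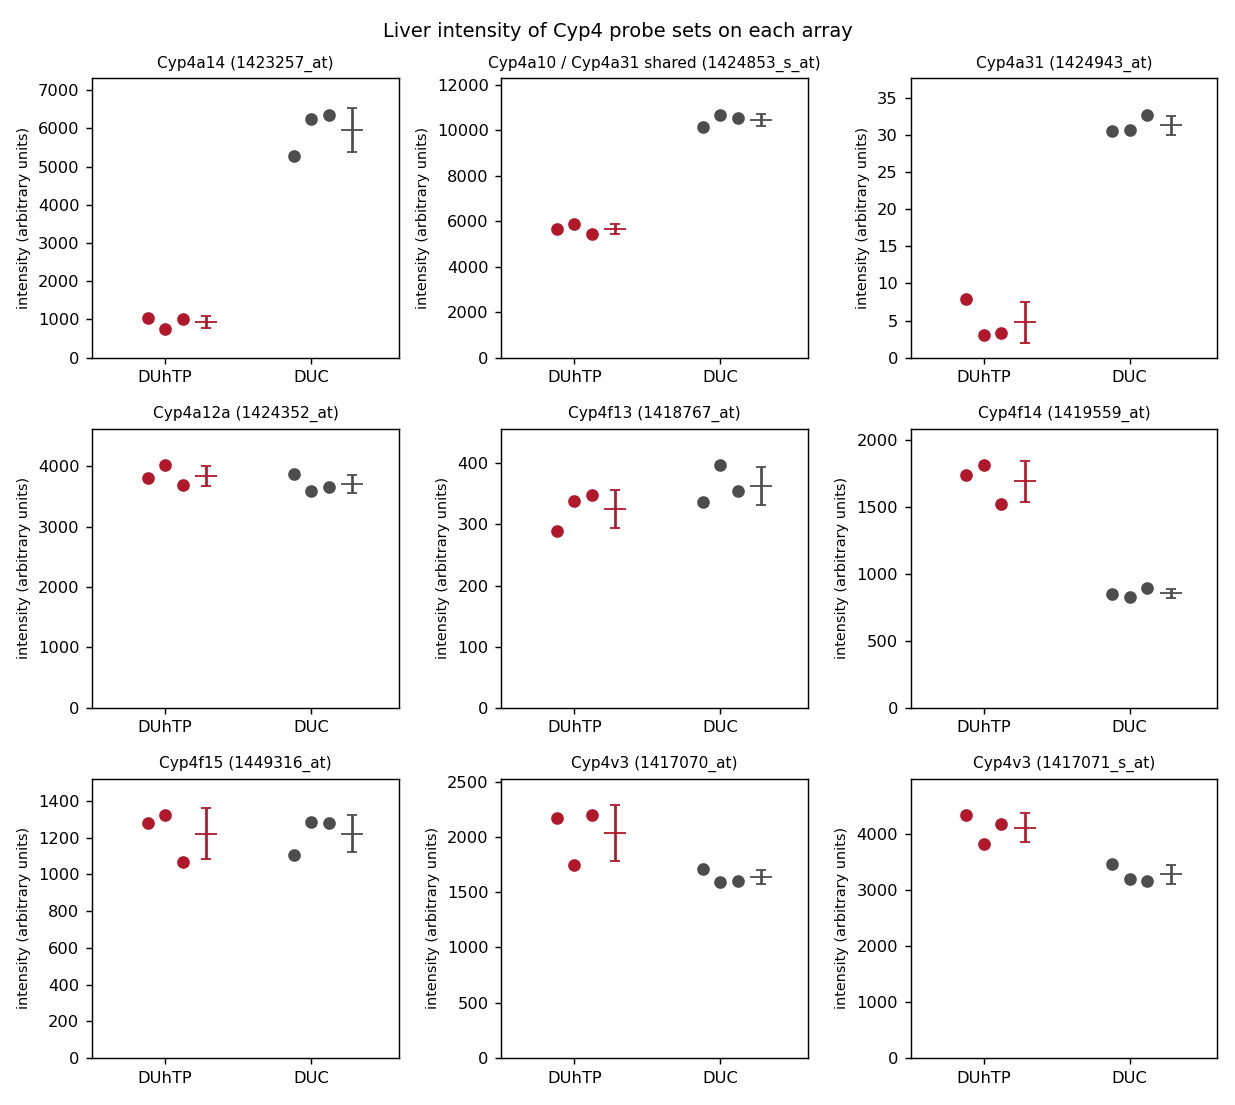
Intensity (arbitrary units, linear axes from 0) of the 9 Cyp4 probe sets on each array, with DUhTP in red and DUC in grey; points are arrays and bars the mean ± SD of 3 arrays. DUhTP arrays lie below all DUC arrays for Cyp4a14, Cyp4a31 and the probe set shared with Cyp4a10, above them for Cyp4f14 and both Cyp4v3 probe sets, and among them for Cyp4a12a, Cyp4f13 and Cyp4f15.

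Both other Cyp4f genes overlapped between the lines. Cyp4f13, whose role in liver is less well described, read 290, 338 and 347 in DUhTP livers, against 337, 397 and 355 in DUC livers, with means of 325 ± 30.9 in DUhTP and 363 ± 30.9 in DUC (SD, n = 3 each). The log2 fold change was -0.16 with a 95% interval from -0.48 to 0.16. Cyp4f15, another leukotriene hydroxylase of the mouse, read 1278, 1324 and 1065 in DUhTP livers, against 1107, 1284 and 1278 in DUC livers. Means of Cyp4f15 were 1222 ± 138 in DUhTP and 1223 ± 101 in DUC (SD, n = 3 each), and the 95% interval of its log2 fold change reached from -0.34 to 0.33. The Cyp4f14 estimate lies outside both intervals, but the genes were not tested against each other, and the members were chosen on this contrast.

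Cyp4v3 is the mouse counterpart of human CYP4V2, the fatty acid hydroxylase mutated in Bietti crystalline dystrophy, and it was measured by 2 probe sets. The probe set without the ending s_at read 2166.26, 1742 and 2196 in DUhTP livers, against 1707, 1595 and 1601 in DUC livers. The Cyp4v3 probe set with the ending s_at read 4344, 3826 and 4192 in DUhTP livers, against 3475, 3197 and 3173 in DUC livers. On both probe sets all DUhTP arrays lay above all DUC arrays, and DUhTP array 2 was the lowest of its line on each. The log2 fold changes were 0.31 (95% interval from -0.02 to 0.63, 1.24-fold) and 0.33 (95% interval from 0.06 to 0.60, 1.25-fold), so the probe sets gave nearly the same size of difference.

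By the fit over all probe sets (limma, Benjamini-Hochberg adjusted p under 0.05), 3 of the 8 members' own probe sets were called, beside 2.41% of all probe sets tested. Cyp4f14 was the 1 probe set called higher in DUhTP, beside 1.36% of all probe sets, and Cyp4a14 and Cyp4a31 were the 2 called lower, beside 1.05%. The shared Cyp4a10 and Cyp4a31 probe set was called lower too. The arrays of the lines did not overlap for 5 of the 8 probe sets, beside 29.4% of all probe sets. Because the members were chosen on this contrast, nothing is read from these counts.

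Leaving out 1 array left between 1 and 122 of all 22626 probe sets called, against 546 with all arrays, and the lowest count was that without DUC replicate 2. Without DUC replicate 2, Cyp4a14 was not called, and it was called without each of the other 5 arrays. Cyp4a31 was called only without DUhTP replicate 1, and Cyp4f14 and the shared probe set were not called with any 1 of the 6 arrays left out. The sizes moved little for these bright probe sets, from -2.76 to -2.54 for Cyp4a14, from 0.93 to 1.05 for Cyp4f14 and from -0.91 to -0.86 for the shared probe set. With 16 units added to every intensity, when 8.62% of all probe sets were called, the same 3 of 8 members were called, and each of them and the shared probe set was also called with any 1 array left out. These member calls rest on the contrast that chose the members, so nothing is read from them either.

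**Figure D2:**
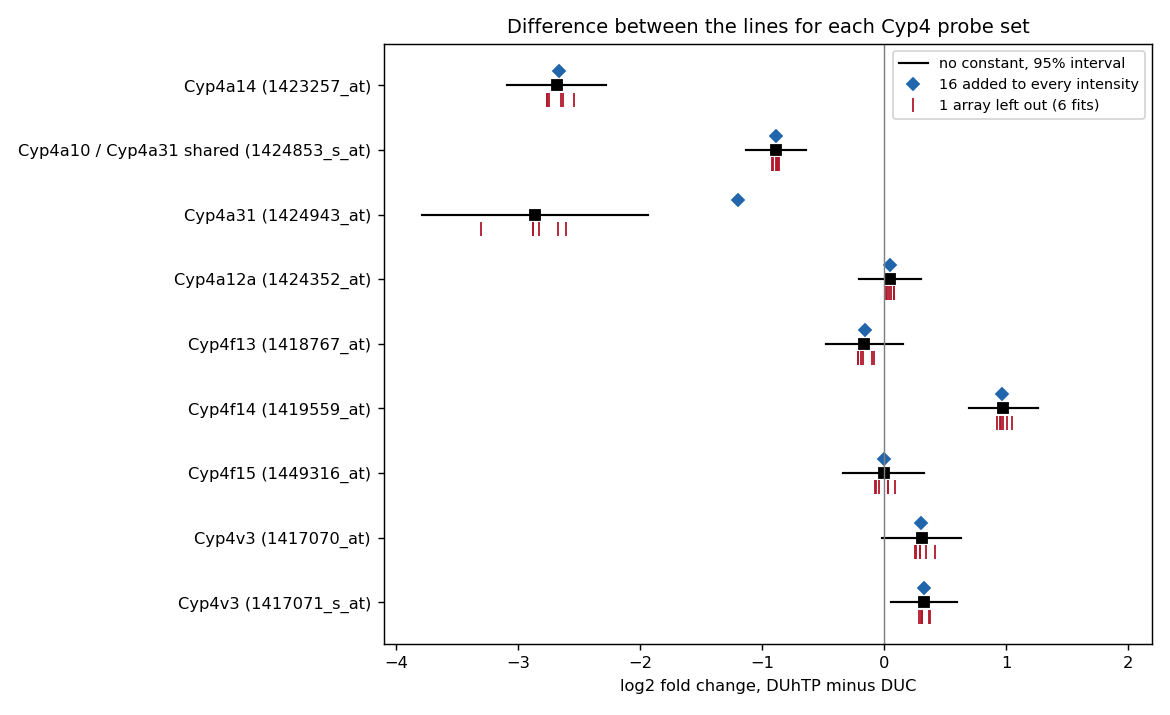
Log2 fold change, DUhTP minus DUC, of each Cyp4 probe set: black squares and lines give the estimate and its 95% interval, blue diamonds the estimate with 16 units added to every intensity, and red ticks the estimates with 1 of the 6 arrays left out. Cyp4a31 is the probe set whose estimate moves most when 16 is added, and Cyp4a12a, Cyp4f13, Cyp4f15 and the upper Cyp4v3 probe set have intervals that include 0.

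The members also varied between arrays of the same line, a measure that does not use the difference between the lines. The SD of log2 intensity within lines was 0.202 for Cyp4a14, 0.544 for the dim Cyp4a31 probe set, 0.131 for Cyp4f13, 0.101 for Cyp4f14 and 0.147 for Cyp4f15. It was lowest for the shared Cyp4a10 and Cyp4a31 probe set at 0.0493 and for Cyp4a12a at 0.0608, and the Cyp4v3 probe sets had 0.138 and 0.0843. The median over all probe sets was 0.229, and over those above the median intensity it was 0.156. Among the bright members only Cyp4a14 thus exceeded the median of probe sets above the median intensity.

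After the mean of each line had been subtracted, the Cyp4v3 probe sets followed each other over the 6 arrays with a Pearson correlation of 0.89. Cyp4f14 and Cyp4f15 had a correlation of 0.77, and Cyp4f13 and Cyp4f14, the direct neighbours, of -0.43. Cyp4a14 and Cyp4a12a had a correlation of -0.91, and Cyp4a14 and the shared Cyp4a10 and Cyp4a31 probe set of -0.34. These are descriptions over 6 arrays that leave few free values once the line means are removed, and the probe sets of an array share its RNA sample and scaling.

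**Figure D3:**
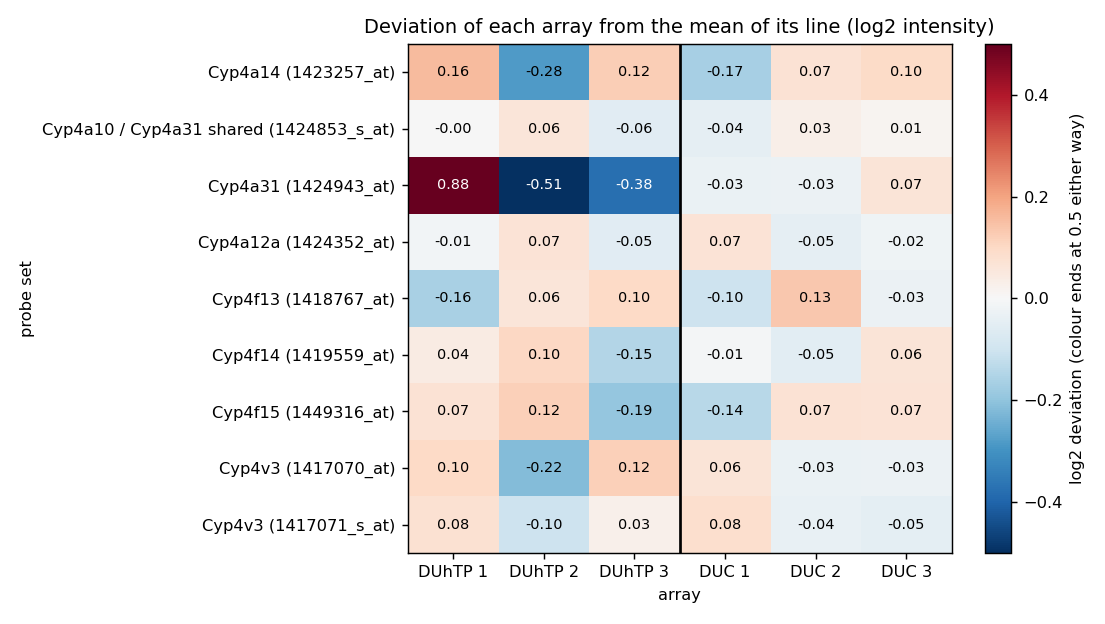
Deviation of each array (columns, DUhTP left of DUC) from the mean of its line in log2 intensity, for each Cyp4 probe set (rows); red is above and blue below the mean of the line, and the colour ends at 0.5 in either direction. DUhTP array 2 is lowest for Cyp4a14, Cyp4a31 and both Cyp4v3 probe sets and highest for Cyp4a12a, Cyp4f14, Cyp4f15 and the probe set shared by Cyp4a10 and Cyp4a31 within its line.

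The genes whose deviations were most like those of the brightest Cyp4a probe set of a single member, Cyp4a12a, were Nudt16l1 at a correlation of 0.997, C1qa at 0.995, Faap20 at 0.993, Hfe at 0.992 and Eral1 at 0.986, among 10344 probe sets above the median intensity. For Cyp4f14 they were Orc5 at 0.996, Sys1 at 0.995, and Klhdc3, Rps18 and Ankrd54 at 0.993 each. A correlation over 0.95 was reached by 30 probe sets for Cyp4a12a (0.29%) and by 63 for Cyp4f14 (0.609%). For Cyp4a14, added after its values were seen, Lpp, Sptb, Fam53a, Smim26 and Apmap were most alike, each at 0.995, and 236 probe sets (2.28%) were over 0.95.

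The other Cyp4 genes on the array gave no call. Of 11 listed, 3 were measured by a probe set of their own, with none higher or lower at an adjusted p under 0.05 and a median log2 fold change of 0.14. Cyp4b1, which in rodents hydroxylates short fatty acids and foreign compounds, averaged 292 ± 43.3 in DUhTP and 213 ± 21.1 in DUC (SD, n = 3 each), with a log2 fold change of 0.45 and a limma adjusted p of 0.184. Cyp4f16 averaged 43.0 ± 11.9 in DUhTP and 38.4 ± 7.48 in DUC (log2 fold change 0.14, limma adjusted p = 0.809). The other, dimmer Cyp4f16 probe set had a log2 fold change of 0.72 (limma adjusted p = 0.213), and its arrays did not overlap between the lines. A probe set shared by Cyp4f37 and Cyp4f16, with no member among its symbols, averaged 14.1 ± 2.29 in DUhTP and 11.7 ± 2.13 in DUC (limma adjusted p = 0.470).

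PPARA targets outside the Cyp4 family were read next, because Cyp4a10 and Cyp4a14 belong to this programme. This list, like all gene lists here, was drawn up with earlier results of these data known. Its counts, median and signs are therefore a description and no independent support. Of 40 listed genes 35 were measured by their brightest probe set, and 4 were lower and 0 higher in DUhTP (limma, adjusted p under 0.05), beside 1.06% of all genes lower and 1.64% higher. The median log2 fold change was -0.22 over the list and 0.00 over all genes, and 26 of the 35 estimates were below 0. Cpt1a, which admits fatty acids to mitochondria, averaged 1314 ± 31.1 in DUhTP and 2489 ± 134 in DUC, with a log2 fold change of -0.92 (SE 0.10, limma adjusted p = 0.0210). Both other Cpt1a probe sets passed as well, at -1.06 and -0.91. Ehhadh, the bifunctional enzyme of peroxisomal oxidation that shortens dicarboxylic acids, averaged 1771 ± 56.7 in DUhTP and 3170 ± 121 in DUC, with a log2 fold change of -0.84 (limma adjusted p = 0.0238).

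The acyl-CoA thioesterase Acot1 averaged 726 ± 89.7 in DUhTP and 1245 ± 42.2 in DUC (log2 fold change -0.78, limma adjusted p = 0.0448), and carnitine acetyltransferase, Crat, averaged 173 ± 21.1 in DUhTP and 290 ± 4.55 in DUC (log2 fold change -0.75, limma adjusted p = 0.0481). The other, dimmer Crat probe set had a log2 fold change of -0.40 (limma adjusted p = 0.431), and its arrays overlapped between the lines. Not all targets had such values. The brightest of the list, the fatty acid binding protein Fabp1, had a log2 fold change of 0.25 (95% interval from -0.01 to 0.52, limma adjusted p = 0.249) and the peroxisomal thiolase Acaa1b one of 0.03 (95% interval from -0.22 to 0.27, limma adjusted p = 0.905). The other Fabp1 probe set had a log2 fold change of 0.04 (limma adjusted p = 0.890). None of the 35 was called with any 1 of the 6 arrays left out. With 16 units added, 9 were lower and 1 higher, beside 4.56% of all genes lower and 4.41% higher, and 5 to 8 were called when 1 array was also left out.

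The receptor gene Ppara was not called and averaged 1389 ± 113 in DUhTP and 1628 ± 134 in DUC (SD, n = 3 each), with a log2 fold change of -0.23 and a limma adjusted p of 0.346. Of 14 measured genes among PPARA and its partners, 2 were lower and 0 higher in DUhTP, beside 1.06% of all genes lower and 1.64% higher. The median log2 fold change of these 14 genes was -0.22, and 12 estimates were below 0. Both lower genes are coactivators: Ppargc1b averaged 68.9 ± 10.8 in DUhTP and 162 ± 15.2 in DUC (log2 fold change -1.24, limma adjusted p = 0.0263), and Ppargc1a averaged 19.3 ± 4.06 in DUhTP and 43.5 ± 5.996 in DUC (log2 fold change -1.19, limma adjusted p = 0.0499). With 1 array left out, Ppargc1b was called in 1 of the 6 fits and Ppargc1a in 0, whereas with 16 units also added both were called in 6 of 6. Of the other 4 Ppargc1a probe sets 1 passed. Hnf4a, a nuclear receptor of hepatocytes, had a log2 fold change of -0.41 (limma adjusted p = 0.116) and the transcription factor Creb3l3 one of 0.01 (limma adjusted p = 0.956). The other Hnf4a probe sets were at -0.48, -0.66 and -0.57 (limma adjusted p = 0.166, 0.0590 and 0.308).

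**Figure D4:**
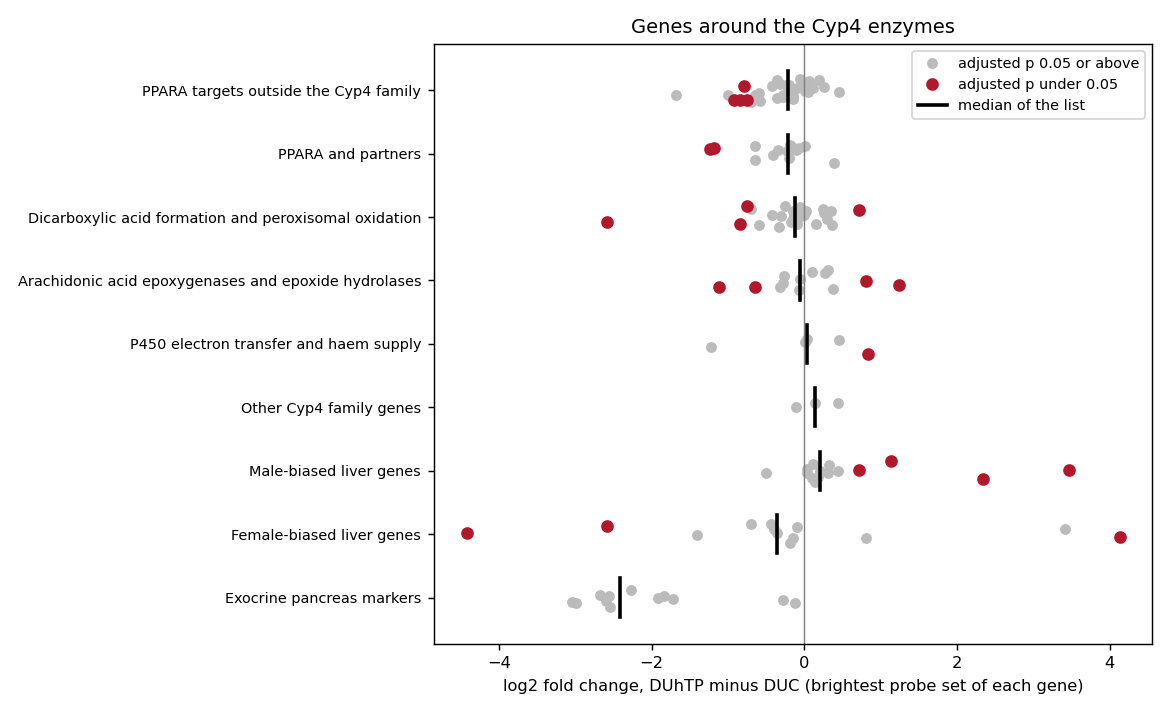
Log2 fold change, DUhTP minus DUC, of the brightest probe set of each gene in 9 lists around the Cyp4 enzymes (rows); red points passed an adjusted p under 0.05, grey points did not, and the black bar is the median of the list. The called PPARA targets and partners all lie below 0, the called male-biased genes all lie above 0, and the exocrine pancreas markers have the lowest median.

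Cyp4 enzymes take electrons from P450 reductase and cytochrome b5, and 5 genes of electron transfer and haem supply were measured. Of these, 1 was higher and 0 lower in DUhTP, beside 1.64% of all genes higher and 1.06% lower. P450 reductase itself was not among these 5 genes, so nothing is said of it here. Cyb5b, the cytochrome b5 of the outer mitochondrial membrane, averaged 1083 ± 55.8 in DUhTP and 610 ± 42.8 in DUC (log2 fold change 0.83, limma adjusted p = 0.0310). The microsomal cytochrome b5, Cyb5a, had a log2 fold change of 0.04 (95% interval from -0.20 to 0.28, limma adjusted p = 0.853). The other Cyb5b probe sets had log2 fold changes of 0.64 and 0.89 (limma adjusted p = 0.156 and 0.0539). Pgrmc1, a membrane partner of P450 enzymes, had a log2 fold change of 0.01 (limma adjusted p = 0.964). The lowest estimate of the list was that of Alas1, which starts haem synthesis and was named after its values were seen: it averaged 1304 ± 393 in DUhTP and 2957 ± 359 in DUC, the arrays of the lines did not overlap, and the log2 fold change was -1.22 (limma adjusted p = 0.0652, and 0.00590 with 16 units added). With 16 units added, 2 genes of this list were higher and 1 lower, beside 4.41% of all genes higher and 4.56% lower. With any 1 array left out none was called, and with 16 units also added 1 to 2 were higher and 1 lower.

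Downstream of the hydroxylases, 26 genes of dicarboxylic acid formation and peroxisomal oxidation were measured, with 1 higher, 3 lower and a median log2 fold change of -0.12. Over all genes 1.64% were higher and 1.06% lower. Besides Ehhadh and Crat, the peroxisomal transporter Abcd2 was lower at dim values of 6.84 ± 1.04 in DUhTP and 41.6 ± 11.5 in DUC (log2 fold change -2.58, limma adjusted p = 0.0122, and -1.32 with 16 units added). The peroxisomal coenzyme A hydrolase Nudt7 was higher, at 4478 ± 82.7 in DUhTP and 2723 ± 93.1 in DUC (log2 fold change 0.72, limma adjusted p = 0.0316). Acaa1b is given above, and the lipid transfer protein Scp2 had a log2 fold change of -0.14 (limma adjusted p = 0.518). The other Scp2 probe sets differed in sign, at -0.53, 0.52 and -0.33 (limma adjusted p = 0.116, 0.459 and 0.260). With any 1 array left out, at most 1 of the 26 was called, and with 16 units also added 1 was higher and 3 to 4 lower. A list of Cyp2c, Cyp2j and epoxide hydrolase genes, drawn up for arachidonic acid metabolism beside Cyp4a12a, had 2 higher and 2 lower of 13 measured, beside the same shares of all genes. Its median log2 fold change was -0.06, and whether each listed P450 acts as an epoxygenase was not tested. The called genes of this list were Cyp2c55 at a log2 fold change of 1.24 and Cyp2c70 at 0.81, both higher, and Cyp2c39 at -1.12 and Cyp2c38 at -0.65, both lower. These related genes may share signal. Of the brightest genes not called, Cyp2c29 had a log2 fold change of -0.28 and Cyp2c50 of 0.10. At most 1 gene of this list was called with any 1 array left out, and with 16 units also added 2 were higher and 2 lower in each of the 6 fits.

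Male-biased liver genes were read beside Cyp4a12a. Of 15 measured, 4 were higher and 0 lower in DUhTP, beside 1.64% of all genes higher and 1.06% lower. The median log2 fold change was 0.21, and the higher genes were Serpina12 at 3.46, the steroid dehydrogenase Hsd3b5 at 2.35, Keg1 at 1.14 and Nudt7. Of 13 measured female-biased genes 1 was higher, Cyp2b9 at 4.13, and 2 were lower, Cyp17a1 at -4.43 and Abcd2, beside the same shares of all genes. Cyp17a1 was dim in DUhTP, at 21.2 ± 10.8, against 406 ± 64.6 in DUC, and its fold of 21.5 without a constant became 11.6 with 16 units added. Each of these genes was called at a limma adjusted p under 0.05. The other, dim Serpina12 probe set had a log2 fold change of 1.47 and was not called (limma adjusted p = 0.161). Of the brightest genes not called, Cyp2f2 had a log2 fold change of 0.17 and Gstp1 of 0.04 among the male-biased genes, and Cyp2b10 of -0.15 and Hamp2 of -0.10 among the female-biased genes. The other, dim Hamp2 probe set was at 0.47 (limma adjusted p = 0.329). With 1 array left out, 0 to 2 male-biased and 0 to 3 female-biased genes were called. With 16 units also added, 4 to 5 male-biased genes were higher and 0 to 1 lower, and 2 female-biased genes were higher and 2 to 3 lower.

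The cell makeup of the livers was not measured, and in whole tissue fewer cells of a type and less RNA per cell cannot be told apart. The counts of called markers that follow stand beside 1.64% of all genes higher and 1.06% lower. Of 6 measured hepatocyte markers 1 was called, the tyrosine aminotransferase Tat at a log2 fold change of -0.88, and albumin averaged 13776 ± 415 in DUhTP and 14104 ± 316 in DUC, near the top of the intensity range in both lines, with Apoa1 at a log2 fold change of 0.00. The summed intensity of the 6 hepatocyte markers was 56619.5 to 59366 in DUhTP and 61575 to 64770.5 in DUC arrays, without overlap. Of the 6 estimates 4 were below 0 and 2 above. Tat averaged 3873 in DUhTP and 7110 in DUC and Cps1 8284 and 10392, whereas Ttr averaged 12854 and 12285. The sum thus rests largely on single metabolic genes and is no measure of hepatocyte content. Pericentral markers, which mark the zone around the central vein, had 2 higher, Rhbg at a log2 fold change of 1.03 and Slc1a2 at 1.22, and 0 lower of 9, with a median of -0.08, and Cyp2e1 at -0.08 and Cyp1a2 at 0.31 were not called. Periportal markers had 0 higher and 1 lower of 5, Pck1 at -0.79, and Cyp2f2 at 0.17 and Arg1 at -0.59 were not called. The other, dim Pck1 probe set was at 0.61 (limma adjusted p = 0.745). Summed intensities of periportal markers were 21011 to 22454 in DUhTP and 25657 to 26703 in DUC arrays, without overlap. Pck1 averaged 3690 in DUhTP and 6391 in DUC and Arg1 6022 and 9003, whereas Cyp2f2 averaged 10134 and 8983. Of the 5 periportal estimates 3 were below 0 and 2 above. Among single probe sets, 29.4% of all did not overlap between the lines. Summed intensities of pericentral markers overlapped, at 22483 to 23707 in DUhTP and 23239.5 to 24043 in DUC arrays. Of 9 Kupffer cell and leukocyte markers 1 was higher, Clec4f at 1.13, Cd5l at -0.01 and Vsig4 at 0.41 were not called, and their summed intensity was 2232 to 2888 in DUhTP and 1737 to 2407 in DUC arrays. Endothelial and stellate markers had 1 of 10 higher, Col3a1 at 0.93, with Stab2 at 0.48 and Dcn at -0.13 not called (sums of 2786 to 3279 in DUhTP and 2571 to 2992 in DUC), and cholangiocyte markers 0 of 4, with Krt19 at 0.14 and Sox9 at -0.17. The other Col3a1 probe set had a log2 fold change of 0.32 (limma adjusted p = 0.346) and the other Sox9 probe set one of 0.40 (limma adjusted p = 0.314). None of these markers, read from the brightest probe set, was called with any 1 array left out. With 16 units also added, each of the 6 fits called 1 hepatocyte marker lower, 2 pericentral markers higher, 1 to 2 periportal markers lower, 1 to 3 Kupffer cell and leukocyte markers higher (0 to 2 lower) and 1 endothelial or stellate marker higher (0 to 1 lower).

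Of 12 measured exocrine pancreas markers 0 were called, although all 12 estimates were below 0, with a median log2 fold change of -2.41. Among the brightest, Ctrb1 had a log2 fold change of -3.05 and Cela1, whose arrays overlapped between the lines, of -0.12. With 16 units added 5 were lower, beside 4.56% of all genes. With 1 array also left out, 10, 7 and 0 were lower without DUhTP replicates 1, 2 and 3, and 1, 0 and 0 without DUC replicates 1, 2 and 3. Their summed intensity was 4605, 1083 and 2935 in DUhTP arrays 1, 2 and 3, against 5335, 10464 and 7874 in DUC arrays 1, 2 and 3. The array with the lowest sum in each line, DUhTP array 2 and DUC array 1, was also the lowest in its line for Cyp4a14 and for the dim Cyp4a31 probe set. Other probe sets had another order. DUhTP array 2 was the highest of its line for Cyp4a12a, Cyp4f14, Cyp4f15 and the shared Cyp4a10 and Cyp4a31 probe set. DUC array 1 was the highest of its line for Cyp4a12a and both Cyp4v3 probe sets. Without DUhTP array 2 the Cyp4a14 log2 fold change was -2.54, and without DUC array 1 it was -2.76. The part of these transcripts in the Cyp4 differences was not tested.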

How the data were processed

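Liver RNA of 3 DUhTP and 3 DUC arrays was measured on Affymetrix mouse genome arrays. The authors scaled scans in GCOS 1.1.1, used Array Assist and MAS 5.0, and deposited PLIER intensity values on a linear scale. The PLIER version and any added constant are not stated in the sources used here. With 16 units added, the fold sizes of Hsd3b5, Cyp17a1 and Cyp2b9 were 4.97, 11.6 and 14.21, which equal those printed in the paper. Without a constant they were 5.09, 21.5 and 17.6, so the main fit here differs from the published folds for such genes. Scale and background cannot be recovered from these intensities, which bears most on dim probe sets. Groups came from the sample descriptions. Of 22690 probe sets, 64 controls were left out. Log2 intensities, with no constant added, were fitted with limma 3.58.1 in R 4.3.3, with Benjamini-Hochberg adjustment over all 22626 probe sets; the fit was tested on simulated data. A gene in a list was read from its brightest probe set of a single symbol.

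The members and the 15 gene lists were chosen with earlier results of these data known. Named were every member probe set, per list up to 4 called genes with the smallest p and 2 others of highest intensity, and the 5 genes most like the brightest Cyp4a and Cyp4f probe sets. Alternatives were 16 added, quantile normalization, the dimmest 33.3% left out, limma-trend, array weights, a replicate block, probe sets marked as matching several transcripts left out, and each array left out. Promoter windows came from RefSeq (GRCm38.p6). Exact permutation of 3 and 3 arrays was not used, since its smallest two-sided p is 0.10.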

Additional observations from a re-analysis of the deposited data

How the results depend on the processing

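The member calls numbered 3 of 8 with 16 added, quantile normalization or array weights, 3 of 7 without probe sets marked as matching several transcripts, 4 with limma-trend, where the Cyp4v3 probe set with the ending s_at was counted too, 2 without the dimmest probe sets, among which was that of Cyp4a31, 0 with the replicate block, and 0 to 2 with 1 array left out. Called PPARA targets, 4 in the report, numbered 10 with 16 added, 10 without the dimmest probe sets, 14 with limma-trend, 2 without those multiple matches, 0 with the replicate block and 0 with any 1 array left out, and, with 16 added and 1 array left out, 5 to 8 (8, 8 and 7 without DUhTP replicates 1, 2 and 3). Over all probe sets the calls numbered 1951 with 16 added, 1851 without the dimmest probe sets, 2350 with limma-trend, 277 without those multiple matches, 0 with the replicate block, 1 to 122 with 1 array left out (1 without DUC replicate 2), and, with 16 added and 1 array left out, 771 to 1591 (1591, 1570 and 1530 without DUhTP replicates 1, 2 and 3, and 961 without DUC replicate 1), against 546 in the report; alternatives beyond the planned ones, among them 16 added with 1 array left out, were chosen after seeing the data. Replicate numbers are not stated to pair arrays, and deviations of same-numbered arrays correlated at only 0.003, 0.005 and 0.067, so the replicate block spends degrees of freedom on a number alone. The sign of the Cyp4f15 difference, near 0, changed in 8 settings, and no other member changed sign. The dim probe set of Cyp4a31 limits what can be said of this gene.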
